A study of Homo sapiens with 16 samples.

Results

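Beta-catenin was depleted from SW480 cells by siRNA, and the 4 arrays of the depleted cells were compared with the 4 arrays of cells given a control siRNA, across 19775 genes. These 8 arrays were chosen by their titles and are part of a series of 16. SW480 is a human colorectal cancer line that carries a truncated APC protein and therefore keeps beta-catenin active without a Wnt signal. The depleted cells, called sibcat cells here, were SW480 cells stably carrying an empty vector and transfected with an siRNA to beta-catenin. 2 other groups of 4 arrays are used to test differences, and they also enter the estimate of the spread behind the adjusted p-values below. The siTAZ cells were the same empty-vector line given an siRNA to TAZ. The APC cells were SW480 stably carrying a vector that expresses wild-type APC and given the control siRNA. The control cells were the empty-vector line given the control siRNA, which the titles call siGFP. All groups grew in the same medium with serum, insulin, hydrocortisone and thioglycerol, and all received an siRNA by lipid transfection. One siRNA treatment represents each target, so effects of the siRNA on other transcripts and effects of losing beta-catenin cannot be told apart. The APC cells and the empty-vector cells are 1 stable line each, and neither the time from transfection to harvest nor the number of siRNA sequences is given in the sources used here.

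Beta-catenin has separate roles at the membrane and in the nucleus of an epithelial cell. At the membrane it ties cadherins to the actin cytoskeleton, and in the nucleus it binds TCF/LEF proteins on DNA and recruits coactivators to Wnt target genes. A complex of APC, AXIN, casein kinase 1 and GSK3 normally marks it for degradation, and colorectal tumours commonly escape this step through mutation of APC. In the intestinal crypt the same pathway maintains stem and progenitor cells, and several of its targets, among them AXIN2, NKD1, RNF43 and ZNRF3, feed back to restrain it.

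The values are log2 expression levels on an Affymetrix U133 Plus 2.0 array, where 1 unit is a doubling of signal. Each gene is represented by the brightest probe set that matches that gene alone. Differences are sibcat minus control unless another pair is named, and a gene is said to have risen or fallen when its adjusted p from limma, with Benjamini-Hochberg adjustment over all 19775 genes, was under 0.05. The labels call the 4 arrays of a group biological replicates but do not say that they came from separate cultures or days, so the p-values measure the spread between these samples. Within groups the arrays correlated at 0.995 or more, and the SD of the difference between 2 control arrays was 0.147 to 0.18 in the pairs without replicate B and 0.229 to 0.268 in the pairs with it. Without control replicate B, 3621 genes rose and 3509 fell, against 3683 and 3416 with it. A probe set is called less open to cross-matching here when its name lacks the suffixes _x_at and _s_at, which mark probes that can match more than 1 transcript or gene, and 42 of the 204 called genes named here have no such probe set. A gene's other probe sets are often dimmer: with each gene read as the mean of its probe sets, 48 of the 203 called differences named here beside CTNNB1 were smaller by more than 1.5 times. The 3′ to 5′ difference of the ACTB control probes, a measure of RNA integrity, was 2.3 ± 0.24 in sibcat cells and 2.05 ± 0.16 in control cells (SD, n = 4 each; exact two-sided permutation test, p = 0.171). Epithelial markers of the line were bright: EPCAM averaged 12.63 ± 0.06 in sibcat cells and 12.80 ± 0.14 in control cells, KRT8 averaged 12.66 ± 0.03 in sibcat cells and 12.56 ± 0.05 in control cells, KRT18 averaged 14.15 ± 0.03 in sibcat cells and 14.20 ± 0.01 in control cells and KRT19 averaged 12.71 ± 0.02 in sibcat cells and 12.70 ± 0.03 in control cells. EPCAM was not called on all 8 arrays but was called lower without sibcat replicate C (-0.19) or control replicate B (-0.23), and with the replicate letter as a block (-0.17). The differentiated colon keratin KRT20 was near the low end of the array at 2.61 ± 0.07 in sibcat cells and 2.78 ± 0.14 in control cells.

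The knockdown was measured first. CTNNB1, which encodes beta-catenin, had log2 levels of 9.99, 9.94, 10.43 and 10.30 in sibcat cells, against 13, 12.97, 13.27 and 13.26 in control cells. All 4 sibcat arrays lay about 3 log2 units under all 4 control arrays, and no array crossed over (log2 difference -2.96, SE 0.11, adjusted p = 2.18e-12). Of its 3 probe sets, all fell, but by different amounts: the brightest kept 12.9% of the control signal, a second 10.8% and the third 75.7%. Over the 4 groups CTNNB1 averaged 10.17 in sibcat cells, 13.33 in siTAZ cells, 12.75 in APC cells and 13.13 in control cells.

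Known feedback targets moved with it. AXIN2, a scaffold of the destruction complex that the pathway itself induces, had log2 levels of 9.85, 9.96, 10.04 and 9.94 in sibcat cells, against 11.71, 11.55, 11.64 and 11.53 in control cells. NKD1, an antagonist that binds Dishevelled, had log2 levels of 6.97, 6.80, 6.74 and 6.58 in sibcat cells, against 9.02, 9.0, 8.86 and 8.87 in control cells. FGF20, a fibroblast growth factor and direct beta-catenin target, had log2 levels of 6.28, 6.21, 6.04 and 6.13 in sibcat cells, against 9.20, 9.37, 9.20 and 9.30 in control cells. For each of these 3 genes every sibcat array was below every control array, with a gap many times the spread inside either group. AXIN2 fell by 1.66, NKD1 by 2.17 and FGF20 by 3.10 on the log2 scale, with SEs of 0.07, 0.07 and 0.08. For CTNNB1 and for each of these 3, an exact two-sided permutation test of the 4 against 4 arrays gave p = 0.0286, the smallest it can give. The sibcat arrays were also lower than the siTAZ arrays for AXIN2 (log2 difference -1.76, adjusted p = 1.88e-12), NKD1 (-2.03, adjusted p = 9.19e-13) and FGF20 (-3.17, adjusted p = 8.49e-15).

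**Figure D1:**
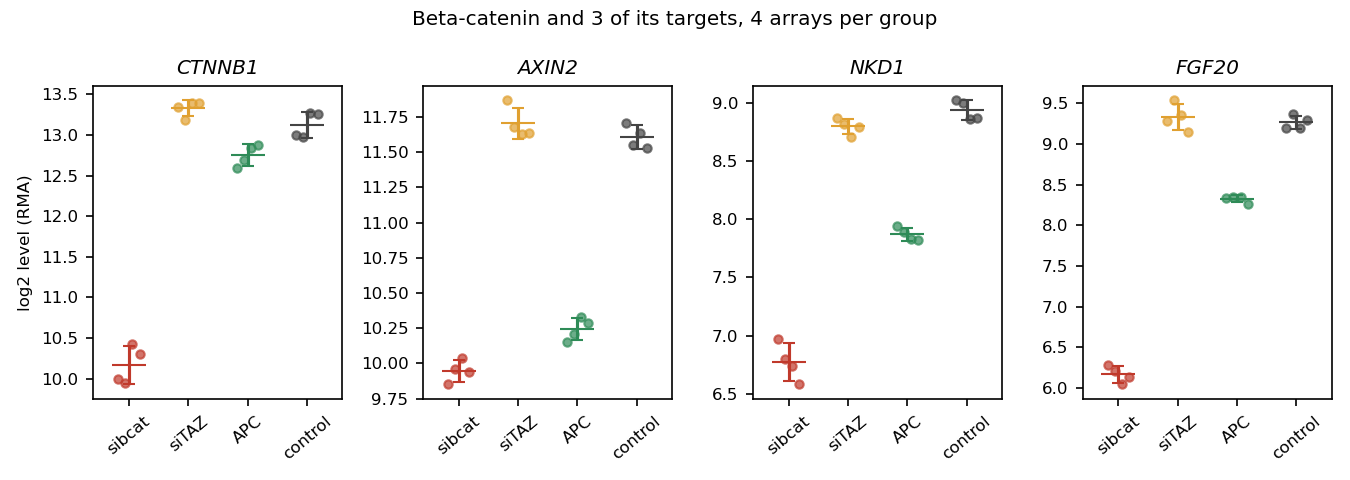
Log2 level of CTNNB1, AXIN2, NKD1 and FGF20 on each array (points) of sibcat, siTAZ, APC and control cells, with the mean and SD of 4 arrays (bar and whiskers). In each panel the 4 sibcat points lie below all 4 control points; mean CTNNB1 was 10.17 in sibcat cells and 13.13 in control cells.

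Across the array the response was broad and nearly even in direction. Of 19775 genes, 3683 rose (18.6%) and 3416 fell (17.3%), with differences between -4.29 and 3.52. With every array centred on its own gene median the split was 3038 higher and 4283 lower, so the balance of directions depends on the scaling. Most of these changes were small: 1079 genes rose (5.46%) and 890 fell (4.5%) by at least 1.5-fold, and 324 rose (1.64%) and 280 fell (1.42%) by at least 2-fold, 3.05% of genes in all. At least 4-fold changes were found for 41 genes that rose and 47 that fell. The median difference over all genes, called or not, was 0, with a median SE of 0.09. For 6631 genes (33.5%) every sibcat array lay on one side of every control array. These shares are the background for every gene group below, where a share near 18.6% rising and 17.3% falling is no more than the array as a whole. For genes named as the 15 largest increases and 15 largest decreases, lack of overlap was a condition of the choice and adds no support. Where lack of overlap is stated below, this applies to PROX1, TNFRSF19, SPARC, NTN4, TRIM22, CCL7, CCL2, ABCA1 and NOG.

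**Figure D2:**
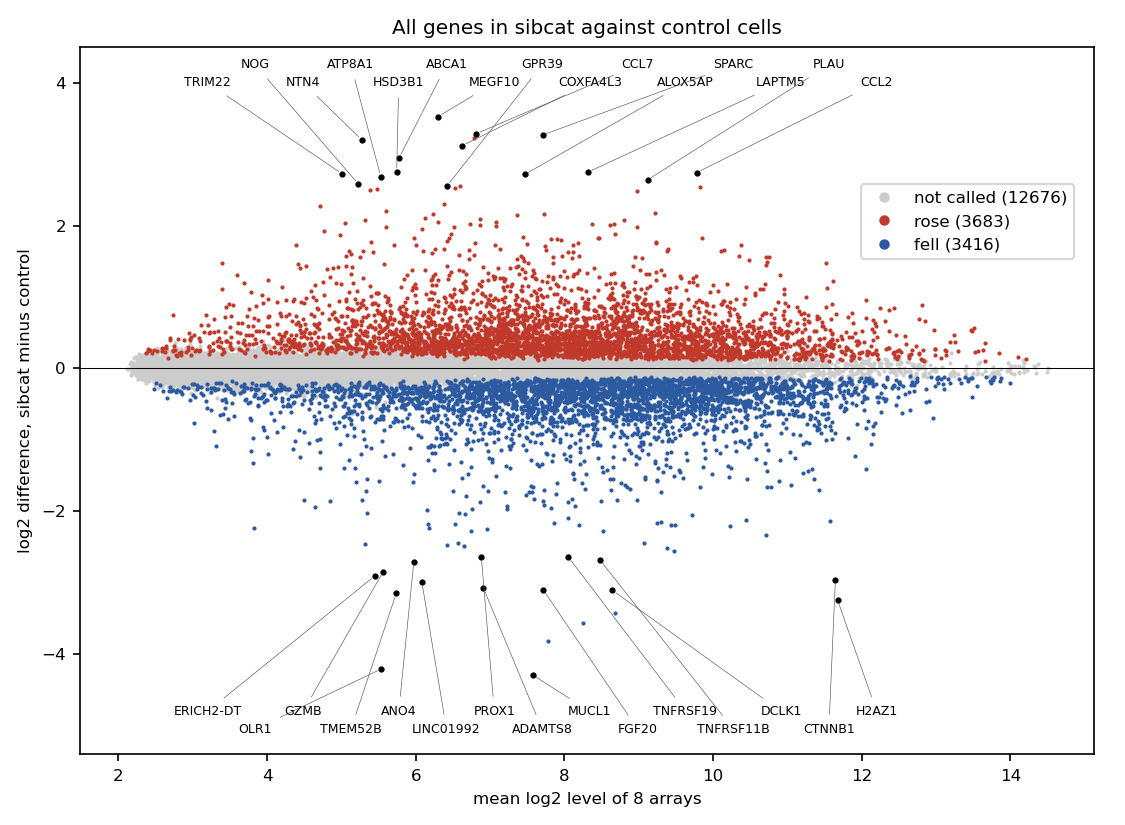
Log2 difference (sibcat minus control) of 19775 genes against the mean log2 level of the 8 arrays; colours mark the 3683 genes that rose and the 3416 that fell, and names mark the 15 largest increases and 15 largest decreases that met the naming rule. Differences reach -4.29 and 3.52, and the median is 0.

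Wnt target genes had the lowest median difference of the 58 gene lists read here. The lists were chosen with earlier results of these data known, so this rank is a description only. Of 41 target and feedback genes measured from a list of 44, 30 fell, 6 rose and 5 were not called, and the median log2 difference was -0.71 (0 over all genes). SP5, a transcription factor that the pathway induces and that represses other targets, had log2 levels of 7.29, 7.35, 7.39 and 7.5 in sibcat cells, against 9.62, 9.63, 9.67 and 9.73 in control cells. RNF43, a membrane ubiquitin ligase that removes Frizzled receptors, had log2 levels of 8.40, 8.53, 8.42 and 8.52 in sibcat cells, against 9.59, 9.65, 9.45 and 9.53 in control cells. Its partner ligase ZNRF3 had log2 levels of 8.73, 8.85, 8.72 and 8.62 in sibcat cells, against 9.74, 9.66, 9.70 and 9.79 in control cells. For all 3 genes the sibcat arrays sat below the control arrays with no overlap, and the log2 differences were -2.28, -1.09 and -0.99.

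Transcription factors and secreted factors of the crypt were among the other large falls. ASCL2, the stem cell factor of the intestinal crypt, had log2 levels of 7.80, 7.75, 7.90 and 7.90 in sibcat cells, against 9.46, 9.33, 9.35 and 9.39 in control cells. PROX1, a homeobox factor linked to progression of colorectal tumours, had log2 levels of 5.42, 5.80, 5.66 and 5.37 in sibcat cells, against 8.31, 8.20, 8.21 and 8.09 in control cells. TNFRSF19, a TNF receptor family member also called TROY that marks crypt stem cells, had log2 levels of 6.53, 6.67, 6.90 and 6.83 in sibcat cells, against 9.33, 9.17, 9.46 and 9.54 in control cells. In none of these genes did a sibcat array reach the control range. Falls were also measured for ETS2 (-1.66), ID2, an inhibitor of basic helix-loop-helix factors (-1.47), JAG1, a Notch ligand (-1.40), APCDD1, a Wnt inhibitor at the membrane (-1.41), and FGF18 (-1.27), all log2 differences. CCND1, which encodes cyclin D1, averaged log2 levels of 10.55 ± 0.06 in sibcat cells and 12 ± 0.13 in control cells (difference -1.44). MYC fell by less, averaging 10.57 ± 0.09 in sibcat cells and 11.16 ± 0.10 in control cells (difference -0.59, adjusted p = 8.85e-07), and SOX9 by less still (-0.34). 2 members with large values rest on 1 bright probe set each. CEMIP, a hyaluronan-degrading protein, fell by 3.82 on its brightest probe set, and its other probe set was dim, at 4.78 in sibcat cells and 5.29 in control cells, around the median of all probe set values (5.09). HUNK, a kinase, fell by 3.42, and its other probe set was under that median in both groups, at 4.36 in sibcat cells and 4.98 in control cells.

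Not every listed target fell. PLAUR, the urokinase receptor, averaged log2 levels of 10.36 ± 0.04 in sibcat cells and 9.19 ± 0.04 in control cells, a rise of 1.17. EPHB3 rose by 0.52, CD44 by 0.42, FOSL1 by 0.39, NOTCH2 by 0.33 and LBH by 0.25 log2 units. The FOSL1 call was lost without sibcat replicate A (0.33) or B (0.30) and without control replicate C (0.32) or D (0.34). LGR5, the best known crypt stem cell marker, was at low log2 levels of 3.90 ± 0.14 in sibcat cells and 3.86 ± 0.26 in control cells and was not called, as were CDC25A (log2 difference -0.08), TBX3 (-0.05), WIF1 (0) and MMP7 (0.06).

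**Figure D3:**
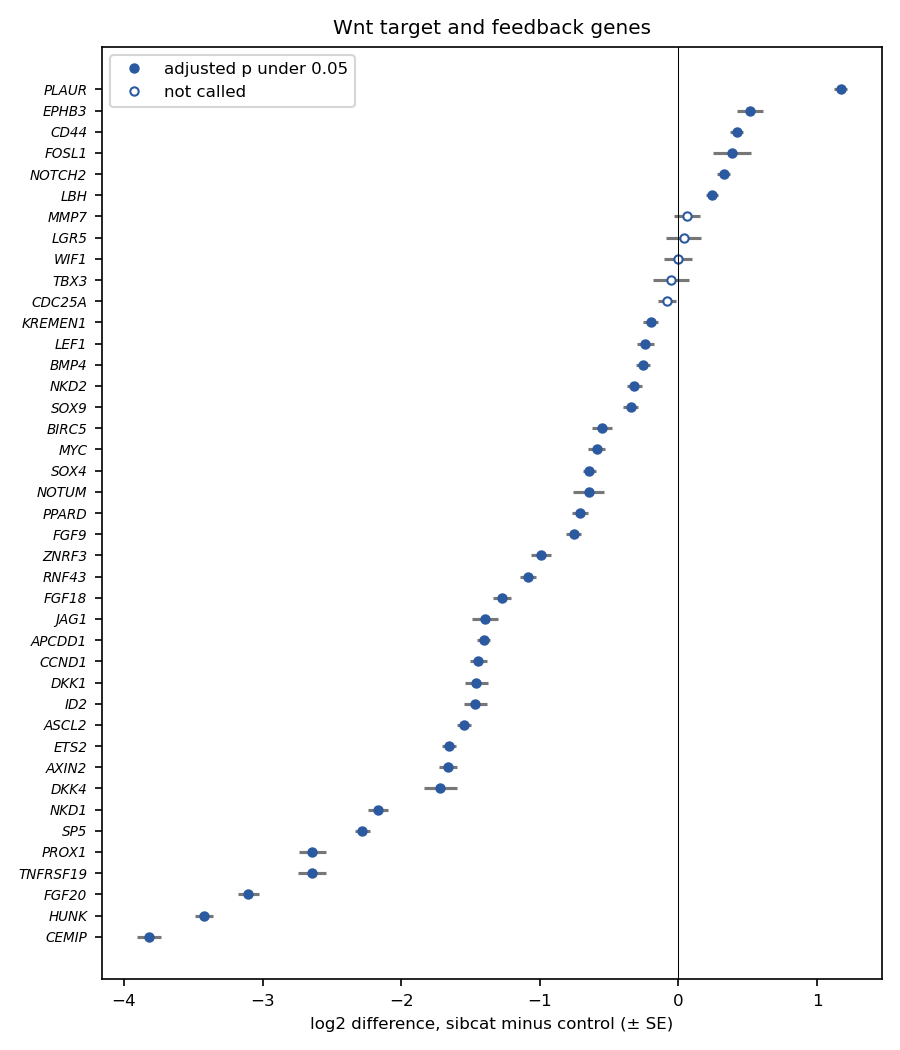
Log2 difference (sibcat minus control) with its SE for the 41 measured Wnt target and feedback genes, sorted by size; filled points passed adjusted p under 0.05 and open points did not. The points run from -3.82 for CEMIP to 1.17 for PLAUR, with 30 called below 0 and 6 called above 0.

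The motif bound by TCF/LEF factors was searched as CTTTGAT, on both strands, in the 300 bases around each gene start (250 before it and 50 from it on) taken from RefSeq on GRCh38.p14. It is a 7-letter word and overlaps no other motif searched. It was in 919 of 35116 promoters (2.62%) and in 422 of 21490 promoters of genes tested here (1.96%). Promoters were at hand for 24 of the 41 measured targets, with 29 promoters in all, and 2 held the word, those of SP5 and FGF18, both of which fell. The 2 promoters are shown because these 2 genes fell and hold the word near their start, with the word in capitals, 5′ to 3′. A match is a description of the letters and not of binding.
SP5, chr2:170715087-170715386, plus strand, match starting at -109 from the gene start: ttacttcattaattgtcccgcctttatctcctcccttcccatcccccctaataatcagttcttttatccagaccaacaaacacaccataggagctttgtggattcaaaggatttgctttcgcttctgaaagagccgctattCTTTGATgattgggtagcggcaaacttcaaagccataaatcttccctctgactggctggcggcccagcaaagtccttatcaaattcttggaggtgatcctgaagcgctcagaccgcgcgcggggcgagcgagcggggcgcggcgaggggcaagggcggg
FGF18, chr5:171419397-171419696, plus strand, match starting at -174 from the gene start: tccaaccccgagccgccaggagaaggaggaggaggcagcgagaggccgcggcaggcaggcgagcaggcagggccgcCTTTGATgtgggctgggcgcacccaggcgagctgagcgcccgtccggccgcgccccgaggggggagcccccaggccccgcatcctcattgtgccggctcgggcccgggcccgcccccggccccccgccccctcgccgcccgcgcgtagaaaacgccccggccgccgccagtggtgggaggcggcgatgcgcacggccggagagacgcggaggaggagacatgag

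The machinery around beta-catenin changed in part. In the destruction complex and its relatives, 5 of 20 genes rose and 5 fell, 25% each, against 18.6% and 17.3% over all genes. The falls include CTNNB1, the siRNA target, and AXIN2, both given above. JUP, plakoglobin, the closest relative of beta-catenin, had log2 levels of 9.0, 8.90, 8.70 and 8.75 in sibcat cells, against 8.30, 8.16, 8.24 and 8.32 in control cells, higher on every sibcat array (rise of 0.58). CSNK1A1, the casein kinase that primes beta-catenin for GSK3, averaged log2 levels of 11.11 ± 0.06 in sibcat cells and 12.10 ± 0.08 in control cells (fall of 0.99). Its 13 probe sets disagreed, with 5 called lower and 2 called higher, and the brightest one less open to cross-matching showed -0.70. CSNK1E fell by 0.70. DVL3, a Dishevelled adaptor, rose by 0.76. APC itself had a log2 difference of -0.11 and AXIN1 of -0.03, both not called.

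Among TCF/LEF factors and their nuclear partners, 7 of 21 rose and 6 fell. CTNNBIP1, also called ICAT, which blocks beta-catenin from binding TCF, had log2 levels of 8.74, 8.80, 8.72 and 8.77 in sibcat cells, against 7.17, 7.29, 7.11 and 7.18 in control cells. The sibcat arrays were all higher, by 1.57 log2 units on average. TLE4, a Groucho corepressor, had log2 levels of 6.72, 6.88, 7.04 and 7.0 in sibcat cells, against 8.10, 8.06, 8.27 and 8.34 in control cells, lower on all sibcat arrays by 1.28 on average. BCL9L and BCL9, adaptors for the transcriptional complex, rose by 0.85 and 0.39, while TLE3 fell by 0.58. TCF7L2, the main TCF of the colon, averaged log2 levels of 10.72 ± 0.08 in sibcat cells and 10.48 ± 0.14 in control cells (difference 0.24, adjusted p = 0.0166), a call that was lost without sibcat replicate C (0.21) or control replicate B (0.18).

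Wnt receptors rose more often than the background. Of 17 receptor genes 9 rose and 2 fell, with a median log2 difference of 0.35. ROR1, a receptor tyrosine kinase for noncanonical Wnt ligands, had log2 levels of 9.17, 9.29, 9.64 and 9.40 in sibcat cells, against 7.71, 6.70, 7.91 and 7.89 in control cells, with no overlap and a rise of 1.82. Rises were also measured for FZD1 (1.08), FZD10 (0.79), FZD7 (0.75), FZD3 (0.69) and the coreceptor LRP6 (0.59), and LGR6, an R-spondin receptor, fell by 0.72, all on the log2 scale. Of 16 ligand and secretion genes 4 rose and 1 fell, and these small counts moved with single arrays: 2 rose without sibcat replicate D, control replicate C or control replicate D, and 0 fell without sibcat replicate A, control replicate C or control replicate D and 2 without control replicate B. WNT10A showed 1.33 on its brightest probe set, but 0.06 on the probe set less open to cross-matching, which read 5.59 in sibcat cells and 5.53 in control cells, little above the median of all probe set values. WNT5B, a noncanonical ligand, averaged log2 levels of 6.04 ± 0.26 in sibcat cells and 5.37 ± 0.14 in control cells, a rise of 0.67.

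Of 13 secreted antagonists 4 fell, 1 rose (2 without sibcat replicate A, sibcat replicate B or control replicate B) and 8 were not called, with a median log2 difference of 0. DKK1, which blocks the LRP coreceptors and is a Wnt target itself, had log2 levels of 8.84, 8.67, 8.92 and 8.88 in sibcat cells, against 10.28, 10.12, 10.31 and 10.43 in control cells. DKK4, of the same family, had log2 levels of 4.80, 4.39, 4.07 and 4.61 in sibcat cells, against 6.14, 6.23, 6.20 and 6.17 in control cells. Both were lower on every sibcat array, but the 2 differ when set against APC cells: DKK1 was 1.5 (adjusted p = 1.79e-10) and DKK4 -8.21 (adjusted p = 2.46e-17) log2 units in sibcat minus APC cells. NOTUM, a secreted enzyme that inactivates Wnt proteins, fell by 0.65. DKK3 rose by 1.15 on its brightest probe set and by 0.60 on the probe set less open to cross-matching.

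Several crypt stem cell genes fell and few differentiation genes rose. In the list of crypt stem cell markers 7 of 17 fell and 2 rose, with a median log2 difference of 0.01. DCLK1, a kinase used as a marker of tuft and tumour stem cells, had log2 levels of 6.98, 7.10, 7.24 and 7.05 in sibcat cells, against 10.17, 10.12, 10.22 and 10.29 in control cells, the largest fall in that list at 3.11. AXIN2, RNF43, ASCL2, TNFRSF19 and SOX9, which also fell, are members of the Wnt target list above as well, so these falls are counted in both lists. Of 31 enterocyte markers 4 rose, 1 fell and 26 were not called, the rising share being under the array's 18.6%. The 4 that rose were CEACAM1 (1.29), the microvillus protein villin VIL1 (1.02), MUC13 (0.97) and TSPAN1 (0.86). CDX2, the homeobox factor of intestinal identity, had log2 levels of 5.55, 5.64, 5.55 and 5.63 in sibcat cells, against 6.71, 6.40, 6.54 and 6.58 in control cells and fell by 0.97. Of 18 goblet and Paneth cell markers 17 were not called, and of 17 enteroendocrine and tuft cell markers 16 were not called. Most markers of these 3 lists were dim. The median of all probe set values was reached in control cells by 9 of the 31 enterocyte markers (8 in sibcat cells). In both groups it was reached by 2 of the 18 goblet and Paneth markers and 4 of the 17 enteroendocrine and tuft markers. Low signals are compressed, so these counts and the enterocyte share cannot tell whether the dim markers responded.

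Genes of DNA replication fell almost throughout. Of 39 measured, 37 fell and none rose, with a median log2 difference of -0.55. GINS1, a subunit of the replicative helicase, had log2 levels of 9.05, 9.10, 9.25 and 9.29 in sibcat cells, against 10.45, 10.46, 10.59 and 10.70 in control cells. CDC6, which loads the helicase, had log2 levels of 7.84, 7.77, 8.16 and 8.09 in sibcat cells, against 8.73, 8.5, 8.90 and 9.12 in control cells. RFC5, of the clamp loader, had log2 levels of 8.70, 8.70, 8.95 and 9.03 in sibcat cells, against 10.01, 9.81, 10.10 and 10.15 in control cells. In all 3 the sibcat arrays lay wholly below the control arrays, by 1.38, 0.85 and 1.17 log2 units. RFC3, also of the clamp loader, fell by 0.83. Enzymes of nucleotide synthesis followed, with 19 of 26 lower, 1 higher and a median of -0.39, among them IMPDH2 for guanine nucleotides (-0.80), TYMS for thymidylate (-0.74) and PFAS (-0.59) and GART (-0.58) for purines. Mitosis and G2/M genes fell in 36 of 42 cases with none higher, at a median of -0.38. STMN1, a microtubule destabiliser, was an exception in size, with log2 levels of 6.59, 6.66, 6.67 and 5.95 in sibcat cells, against 10.09, 9.90, 10.08 and 10.05 in control cells on its brightest probe set. The only other probe set of STMN1 read 3.4 in sibcat cells and 3.68 in control cells, far under the median of all probe set values, so the fall rests on 1 probe set. The spindle checkpoint gene MAD2L1 fell by 0.90, the kinetochore gene NUF2 by 0.68, cyclin B1 (CCNB1) by 0.67 and the spindle motor KIF11 by 0.66.

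G1 regulators were lower in 16 of 25 and higher in 4, with a median log2 difference of -0.27. After CCND1, the larger falls were E2F8 (-1.0), an atypical E2F, the E2F partner TFDP1 (-0.95) and cyclin E2, CCNE2 (-0.64), and CCND3 rose by 0.62. CDK inhibitors and p53 targets split evenly, 10 of 25 rising (6 without sibcat replicate D) and 9 falling. CDKN1A, which encodes p21, had log2 levels of 8.22, 8.21, 8.18 and 8.08 in sibcat cells, against 9.43, 9.52, 9.37 and 9.42 in control cells. CDKN1C, which encodes p57, had log2 levels of 7.14, 7.12, 7.23 and 7.22 in sibcat cells, against 8.96, 9.05, 9.19 and 9.20 in control cells. CDKN1B, which encodes p27, had log2 levels of 10.70, 10.86, 10.90 and 10.74 in sibcat cells, against 9.82, 9.56, 9.99 and 9.93 in control cells. The first 2 fell, by 1.26 and 1.92, and CDKN1B rose, by 0.98, each with no overlap between the groups. CDKN2B, which encodes p15, rose by 0.71.

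Genes of ribosome synthesis and translation fell more often than the background, while polyamine and MYC network genes went both ways. In the nucleolus, 39 of 44 ribosome biogenesis genes fell and 1 rose (0 without sibcat replicate B, control replicate C or control replicate D, and 2 without sibcat replicate A), at a median log2 difference of -0.41. LYAR fell by 0.99, UTP15 by 0.97, EMG1 by 0.74, NPM3 by 0.70 and NIP7 by 0.68. Translation factors and tRNA synthetases fell in 15 of 25 cases against 1 higher, led by IARS1, the isoleucine synthetase (-0.86), and EIF4EBP1, which binds and blocks the cap-binding factor, rose by 0.43. Of 10 polyamine synthesis genes 5 fell and 3 rose, with a median log2 difference of -0.12. ODC1, the rate-limiting decarboxylase, had log2 levels of 11.30, 11.28, 11.29 and 11.32 in sibcat cells, against 12.50, 12.53, 12.55 and 12.52 in control cells. ODC1 fell by 1.23, SMS by 0.64 and SRM by 0.57, while the catabolic enzyme SAT1 rose by 0.63. In the MYC network 4 of 14 genes rose, 2 fell and 8 were not called, at a median of 0.09. MYC itself fell, and its antagonists MXI1 (0.53) and MXD1 (0.43) rose.

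The amino acid response driven by ATF4 was lower as well. Of 25 genes 16 fell and 4 rose, with a median log2 difference of -0.53. CTH, which makes cysteine, had log2 levels of 6.19, 6.85, 6.98 and 6.98 in sibcat cells, against 8.25, 8.18, 8.58 and 8.63 in control cells. SLC7A11, the cystine importer, had log2 levels of 6.86, 7.03, 7.02 and 6.92 in sibcat cells, against 8.38, 8.17, 8.25 and 8.39 in control cells. No sibcat array overlapped the control range in these genes, and they fell by 1.66 and 1.34. PSAT1, of serine synthesis, fell by 0.91, and DDIT4, a stress-induced inhibitor of mTORC1, rose by 0.96.

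**Figure D4:**
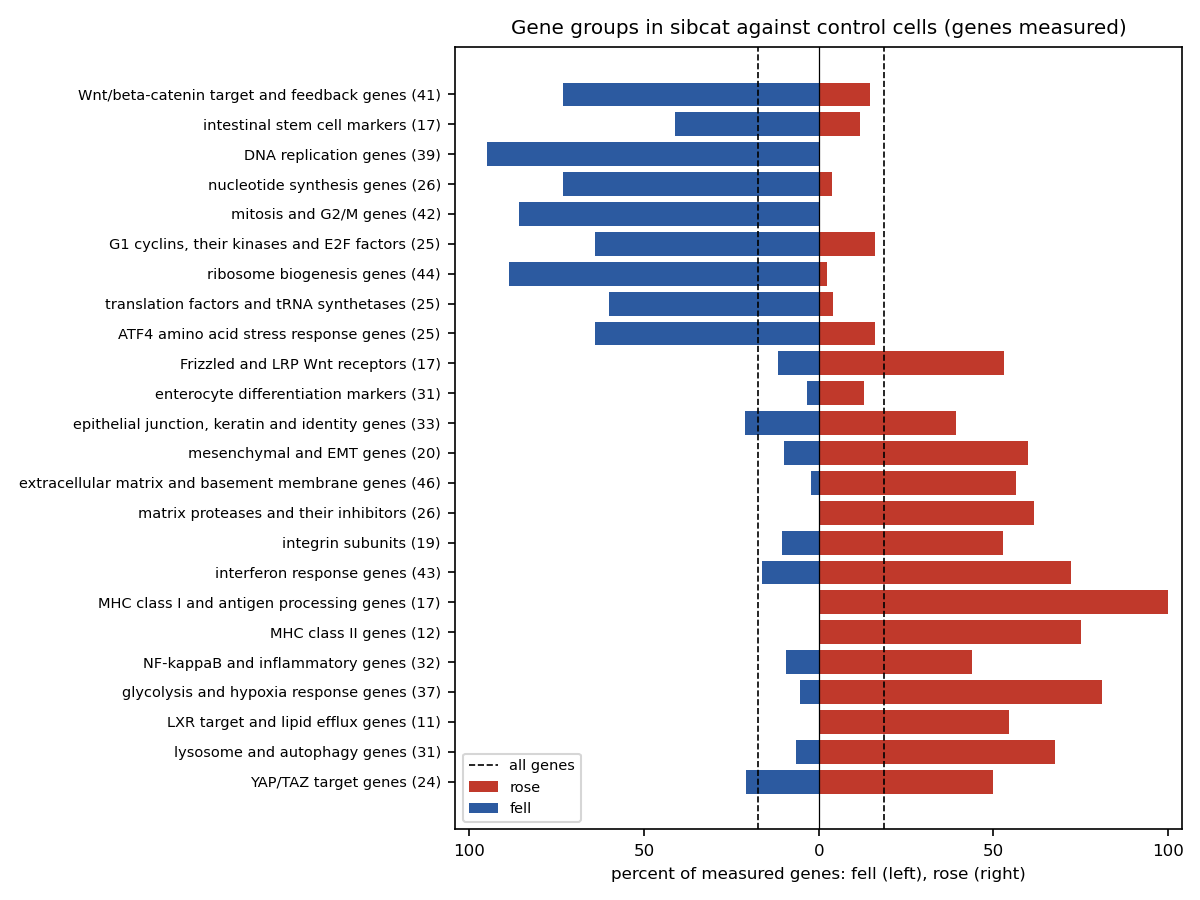
Percent of measured members that rose (right) and fell (left) in sibcat against control cells for selected gene groups, with dashed lines at the shares over all 19775 genes, 18.6% higher and 17.3% lower. Replication, ribosome and mitosis genes lie almost wholly to the left and MHC class I genes wholly to the right.

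Matrix genes rose more often than the background. Of 46 extracellular matrix and basement membrane genes 26 rose and 1 fell (0 without sibcat replicate B or D or control replicate B or C, and 2 without control replicate A), with a median log2 difference of 0.44. SPARC, a collagen-binding matrix protein, had log2 levels of 8.99, 9.28, 9.52 and 9.57 in sibcat cells, against 6.13, 6.08, 6.04 and 6.04 in control cells. NTN4, a netrin of the basement membrane, had log2 levels of 6.70, 6.77, 7.12 and 6.90 in sibcat cells, against 3.44, 3.32, 3.99 and 3.93 in control cells. COL6A1, a collagen VI chain, had log2 levels of 9.91, 9.85, 9.83 and 9.78 in sibcat cells, against 7.82, 7.72, 7.75 and 7.78 in control cells. The sibcat arrays were above the control arrays in all 3, by 3.27, 3.2 and 2.08 log2 units, and the COL6A1 probe sets disagreed: 3 of 8 rose, the brightest among them. LOXL2, a collagen cross-linking oxidase, rose by 1.88 and COL6A3 by 1.78.

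Proteases that cut matrix, and their inhibitors, rose in 16 of 26 cases and fell in none. PLAU, urokinase, had log2 levels of 10.44, 10.39, 10.46 and 10.47 in sibcat cells, against 7.72, 7.73, 7.94 and 7.81 in control cells. Its receptor PLAUR was described above, and the related activator PLAT rose by 1.47. TIMP3, a metalloprotease inhibitor, averaged log2 levels of 9.38 ± 0.15 in sibcat cells and 7.37 ± 0.12 in control cells, and MMP9, a gelatinase, averaged 9.06 ± 0.06 in sibcat cells and 7.31 ± 0.02 in control cells, both called higher. Of 19 integrin subunits 10 rose and 2 fell (1 without sibcat replicate A or D or without control replicate A, C or D), the largest rises being ITGB8, an activator of latent TGF-beta (2.49), ITGA3, a laminin receptor chain (1.37) and ITGA5, of the fibronectin receptor (1.10).

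Mesenchymal genes rose more often than the background, and epithelial genes moved both ways. Of 20 mesenchymal and EMT genes 12 rose and 2 fell (median log2 difference 0.47). Only 1 mesenchymal gene fell when sibcat replicate A, B or C or control replicate A, B or D was left out. Of 33 epithelial junction, keratin and identity genes 13 rose, 7 fell and 13 were not called, with a median log2 difference of 0.02. On the mesenchymal side, SNAI2 (Slug) averaged log2 levels of 7.97 ± 0.10 in sibcat cells and 6.30 ± 0.11 in control cells and ZEB1 averaged 8.05 ± 0.08 in sibcat cells and 6.72 ± 0.19 in control cells, 2 repressors of E-cadherin. Rises were also measured for NCAM1 (1.98), L1CAM (1.52) and NT5E (1.49), which are surface proteins, on the log2 scale. On the epithelial side, ELF3, an epithelial ETS factor, averaged log2 levels of 8.14 ± 0.09 in sibcat cells and 6.79 ± 0.09 in control cells, a rise of 1.35. SPINT1, a protease inhibitor of epithelia, rose by 1.33 and KRT80 by 1.34, and KRT23 fell by 1.70. In the cadherin-catenin adhesion complex 3 of 16 genes rose, 3 fell and 10 were not called, shares of 18.8% each way that are near the background. E-cadherin itself, CDH1, the membrane partner of beta-catenin, had log2 levels of 10.22, 10.20, 10.36 and 10.36 in sibcat cells, against 9.82, 9.67, 10.07 and 9.95 in control cells, with no overlap and a rise of 0.41. Vinculin (VCL), which links the complex to actin, rose by 0.63, P-cadherin (CDH3) fell by 0.61 and the desmosomal plakophilin PKP2 by 0.66. Among actin and focal adhesion genes (11 of 31 higher, 5 lower), TNS3 rose by 1.56 and FERMT2, a kindlin that activates integrins, fell by 1.51.

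Antigen presentation genes rose as a block. All 17 MHC class I and antigen processing genes measured rose, at a median log2 difference of 0.64. Against siTAZ cells 11 of the 17 were higher in sibcat cells and 0 lower, where 17.8% of all genes were higher and 18.9% lower. Against APC cells 2 of the 17 were higher and 6 lower, where 21.7% of all genes were higher and 20.3% lower. PSMB9, a subunit of the immunoproteasome, had log2 levels of 10.09, 10.03, 10.09 and 10.09 in sibcat cells, against 8.89, 9.04, 8.91 and 8.88 in control cells. PSMB10, another, averaged log2 levels of 9.90 ± 0.05 in sibcat cells and 8.93 ± 0.05 in control cells. ERAP2, which trims peptides, rose by 0.83 and HLA-B by 0.78. HLA genes are close in sequence, and their probe sets can match more than 1 of them. MHC class II genes rose in 9 of 12 cases with none lower, including CD74, the invariant chain (0.67), HLA-DRA (0.63) and their activator CIITA (0.49). With each gene read as the mean of its probe sets, CD74 (0.21) and CIITA (0.07) were not called. Against APC cells, however, 10 of the 12 class II genes were lower in sibcat cells (20.3% of all genes were): CD74 averaged 7.79 in sibcat cells, 7.65 in siTAZ cells, 10.27 in APC cells and 7.12 in control cells, and sibcat minus APC was -2.48 (adjusted p = 3.65e-11).

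Interferon response genes rose in 31 of 43 cases and fell in 7, with a median log2 difference of 0.54. IFIT1, which binds foreign RNA caps, had log2 levels of 7.79, 7.93, 7.84 and 7.92 in sibcat cells, against 5.80, 5.81, 5.94 and 5.90 in control cells. TRIM22, an antiviral ubiquitin ligase, had log2 levels of 6.34, 6.42, 6.45 and 6.28 in sibcat cells, against 3.64, 3.85, 3.70 and 3.40 in control cells. SAMD9, an antiviral effector, had log2 levels of 5.69, 5.67, 5.87 and 5.68 in sibcat cells, against 3.77, 3.83, 3.70 and 3.90 in control cells. The sibcat arrays were higher without overlap in each, which the naming rule required of TRIM22, by 2.01, 2.73 and 1.93. GBP2, a guanylate-binding protein, rose by 1.64. Of 14 sensors of double-stranded RNA 6 rose and 1 fell, among the risers TLR3 (1.32), OAS1 (1.23) and RIGI (0.52). Every group, the control included, had been given an siRNA, and whether the siRNA to beta-catenin itself raised these genes was not tested. Against siTAZ cells 25 of the 43 interferon genes were higher in sibcat cells and 9 lower, where 17.8% of all genes were higher and 18.9% lower. Against APC cells 17 of the 43 were higher and 9 lower, at a median of 0.12, where 21.7% of all genes were higher and 20.3% lower.

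Inflammatory genes moved both ways. In the NF-kappaB and inflammation list 14 of 32 rose and 3 fell, and of 22 chemokines 7 rose and 5 fell. With dim genes left out, 3 chemokines rose. The lowest log2 differences were -1.39 in the inflammation list and -1.05 among chemokines, and the single genes given here are all rises. C3, the central complement component, had log2 levels of 10.45, 10.43, 10.11 and 10.24 in sibcat cells, against 8.24, 8.18, 8.02 and 8.07 in control cells. LCN2, an iron-binding acute phase protein, averaged log2 levels of 11.24 ± 0.16 in sibcat cells and 9.51 ± 0.13 in control cells. CCL2, a monocyte attractant, had log2 levels of 11.23, 11.33, 10.98 and 11.07 in sibcat cells, against 8.56, 8.45, 8.30 and 8.33 in control cells. CCL7, another monocyte attractant, had log2 levels of 8.22, 8.41, 8.59 and 8.62 in sibcat cells, against 5.37, 4.93, 5.05 and 5.34 in control cells. The arrays did not overlap for any of these, which the naming rule required of CCL7 and CCL2. CCL7 and CCL2 rose by 3.29 and 2.74. CX3CL1 rose by 1.75 and CCL26, an eosinophil attractant, by 1.44.

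Metabolic genes rose in several groups. Of 37 glycolysis and hypoxia response genes 30 rose and 2 fell (1 without control replicate C), but by small amounts, at a median log2 difference of 0.29. The largest were ANGPTL4, an inhibitor of lipoprotein lipase (1.16), and PFKFB4, which sets the level of a glycolytic activator (1.11). Respiratory chain subunits rose in 12 of 31 cases, with a median log2 difference of 0.085. The number rising was 7 with arrays centred on their gene median and 2 with replicates A and B alone. On probe sets less open to cross-matching 5 of 28 rose, near the background. These subunits fell in 4 cases, or in 1 without sibcat replicate B and in 2 without sibcat replicate C or D or control replicate A, B or C. Targets of LXR, the sterol-sensing receptor, rose in 6 of 11 cases with none lower. ABCA1, which exports cholesterol, had log2 levels of 7.12, 7.12, 7.48 and 7.26 in sibcat cells, against 4.24, 3.98, 4.71 and 4.28 in control cells. ABCG1, a second exporter, had log2 levels of 7.58, 7.91, 8.06 and 7.92 in sibcat cells, against 5.25, 4.93, 5.45 and 5.63 in control cells. NR1H3, which encodes LXR-alpha, had log2 levels of 8.35, 8.12, 8.08 and 8.24 in sibcat cells, against 6.75, 6.49, 6.53 and 6.74 in control cells. All 3 were higher on every sibcat array, by 2.94, 2.55 and 1.57 log2 units (1.70 on the ABCG1 probe set less open to cross-matching). Among nuclear receptors (7 of 24 higher, 7 lower), PPARG, the receptor of fat cell differentiation, rose by 1.85 and NR2F1 fell by 1.48. Lipid synthesis genes rose in 9 of 25 and fell in 4, with SREBF1, which drives them, up by 1.0.

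Lysosome and autophagy genes rose in 21 of 31 cases and fell in 2. LAPTM5, a lysosomal membrane protein usually studied in leukocytes, had log2 levels of 9.74, 9.69, 9.66 and 9.69 in sibcat cells, against 7.09, 6.96, 6.85 and 6.88 in control cells. The protease cathepsin D (CTSD) rose by 1.03. Of 22 AKR1 reductases and NRF2 targets 13 rose and 3 fell (5 without sibcat replicate C), with HSD3B1, a steroid-converting enzyme (2.75), and AKR1C3, a ketosteroid reductase (2.27), the largest rises. AKR1C genes are near-identical copies, and signal can be shared among them.

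Growth factor pathways changed in their ligands, inhibitors and targets. In the TGF-beta and BMP pathway 15 of 36 genes rose and 10 fell. BAMBI, a decoy receptor, had log2 levels of 9.57, 9.59, 9.56 and 9.47 in sibcat cells, against 11.92, 11.92, 11.83 and 11.86 in control cells. NOG, which encodes the BMP trap noggin, had log2 levels of 6.54, 6.51, 6.59 and 6.44 in sibcat cells, against 4.05, 3.74, 4.10 and 3.87 in control cells. The receptors TGFBR2 (1.14) and TGFBR3 (1.11) rose on the log2 scale, BAMBI fell by 2.34 and NOG rose by 2.58, and the groups did not overlap for BAMBI or NOG. In the FGF, EGF and insulin-like group 11 of 33 rose and 5 fell. After FGF20, the larger falls were FGF19 (-1.45) and FGF18 (-1.27), and EREG, an EGF receptor ligand, rose by 1.15. Of 27 Notch genes 10 rose and 9 fell. The Notch target HEY2 fell by 2.28, while LFNG, which modifies Notch receptors, rose by 1.26. Among immediate early and MAPK feedback genes, 14 of 38 rose and 12 fell: EGR1, a growth factor-induced zinc finger factor, had log2 levels of 8.20, 8.06, 8.29 and 8.33 in sibcat cells, against 10.40, 10.27, 10.37 and 10.45 in control cells. EGR1 fell by 2.15 and EGR3 by 1.65, and the phosphatase DUSP10 rose by 1.0.

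Cell surface guidance genes also included large single changes. EFNA5, an ephrin, rose by 1.81 and EFNA1 by 1.17, within 7 of 18 Eph and ephrin genes higher and 2 lower. Among 39 semaphorin, plexin, netrin and slit genes 11 rose and 9 fell, with UNC5A, a netrin receptor, up by 1.19. Of 33 BCL2 family and apoptosis genes 14 rose and 7 fell. TNFSF10, which encodes TRAIL, had log2 levels of 9.47, 9.71, 9.71 and 9.60 in sibcat cells, against 7.56, 7.51, 7.66 and 7.73 in control cells, higher on every sibcat array by 2.01. The BH3-only genes BMF and BCL2L11 (BIM), which promote cell death, rose by 1.07 and 0.83. Oncofetal genes rose in 5 of 10 cases, with the zinc finger factor PLAG1 up by 1.14 and HMGA1, an architectural chromatin protein, by 0.67. Of 29 HOX and gut patterning factors 12 fell and 3 rose, HOXB2 by 1.71 downward and KLF5, a crypt progenitor factor, by 1.34 downward.

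The series asks how TAZ serves Wnt signalling, so genes of the Hippo pathway were read in sibcat cells too. WWTR1, which encodes TAZ, had log2 levels of 10.97, 10.93, 11.05 and 10.95 in sibcat cells, against 10.26, 10.13, 10.33 and 10.39 in control cells, a rise of 0.70. YAP1 had log2 levels of 9.84, 10.11, 10.11 and 10.07 in sibcat cells, against 11.39, 11.14, 11.45 and 11.45 in control cells, a fall of 1.33. On their brightest probe sets the paralogs therefore moved in opposite directions at the level of RNA. Targets shared by YAP and TAZ rose in 12 of 24 cases and fell in 5. CCN2, also called CTGF, had log2 levels of 5.21, 4.88, 5.19 and 5.05 in sibcat cells, against 7.43, 7.01, 7.37 and 7.23 in control cells and fell by 2.18. CRIM1 fell by 1.24 and NT5E (1.49), TGFB2 (0.99) and MYOF (0.92) rose. Of 25 Hippo kinases, TEADs and cofactors 9 rose and 4 fell. With each gene read as the mean of its probe sets, 3 of them rose.

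The single genes with the largest rises came from many functions. MEGF10, an engulfment receptor, averaged log2 levels of 8.06 in sibcat cells, 5.19 in siTAZ cells, 8.06 in APC cells and 4.54 in control cells. The sibcat and APC means nearly coincide, and sibcat minus APC was 0.01 (adjusted p = 0.982). The other large rises were CCL7, SPARC, NTN4, ABCA1, LAPTM5, HSD3B1, CCL2, TRIM22, PLAU and NOG, given above, with COXFA4L3 (3.12), ALOX5AP, a helper of leukotriene synthesis (2.72), ATP8A1, a phospholipid flippase (2.69), and GPR39, a zinc-sensing receptor (2.56). Of the 15, 5 have no probe set less open to cross-matching: CCL7, LAPTM5, CCL2, TRIM22 and PLAU. Against siTAZ cells SPARC differed by 2.01, ABCA1 by 2.10, CCL2 by 1.43 and PLAU by 2.01 log2 units in sibcat minus siTAZ, with adjusted p of 1.10e-09, 4.35e-09, 7.59e-08 and 6.85e-14. Against APC cells the same 4 genes differed by 3.74, -0.36, -0.15 and 0.43, with adjusted p of 3.95e-13, 0.0605, 0.387 and 9.46e-06.

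The largest falls differed in their level in APC cells. MUCL1, a small mucin-like protein, had the largest fall of a gene that met the naming rule, with log2 levels of 5.29, 5.68, 5.76 and 4.97 in sibcat cells, against 9.67, 9.74, 9.73 and 9.73 in control cells. OLR1, a scavenger receptor for oxidised lipoprotein, averaged 3.44 in sibcat cells, 7.94 in siTAZ cells, 3.19 in APC cells and 7.64 in control cells. TMEM52B averaged 4.16 in sibcat cells, 8.91 in siTAZ cells, 3.27 in APC cells and 7.31 in control cells. ADAMTS8, a matrix protease, averaged 5.37 in sibcat cells, 8.40 in siTAZ cells, 5.21 in APC cells and 8.45 in control cells. These 3 were nearer the sibcat than the control level in APC cells. TNFRSF11B, osteoprotegerin, averaged 7.14 in sibcat cells, 10.09 in siTAZ cells, 9.04 in APC cells and 9.82 in control cells. The log2 differences were -2.85 for GZMB (granzyme B), -2.99 for LINC01992 and -2.91 for ERICH2-DT.

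A second set of large falls was measured in sibcat cells with APC and siTAZ cells at about the control level. H2AZ1, the histone variant H2A.Z, had log2 levels of 9.83, 10.10, 10.24 and 10.04 in sibcat cells, against 13.32, 13.14, 13.40 and 13.32 in control cells. Its means were 10.05 in sibcat cells, 13.20 in siTAZ cells, 13.21 in APC cells and 13.30 in control cells, and sibcat minus siTAZ was -3.15 (adjusted p = 1.02e-14) and sibcat minus APC -3.15 (adjusted p = 6.91e-15). Both of its probe sets fell by more than 3 log2 units. STMN1 averaged 6.47 in sibcat cells, 10.16 in siTAZ cells, 9.96 in APC cells and 10.03 in control cells, with -3.50 in sibcat minus APC cells. 3 further genes, chosen after their values were seen, had this pattern: HNRNPA0, an RNA-binding protein, averaged 9.39 in sibcat cells, 11.36 in siTAZ cells, 11.57 in APC cells and 11.51 in control cells, CPSF3, the nuclease that cuts pre-mRNA before polyadenylation, averaged 8.39 in sibcat cells, 10.41 in siTAZ cells, 10.54 in APC cells and 10.59 in control cells, and the kinase UHMK1 averaged 9.12 in sibcat cells, 11.18 in siTAZ cells, 11.40 in APC cells and 11.33 in control cells.

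**Figure D5:**
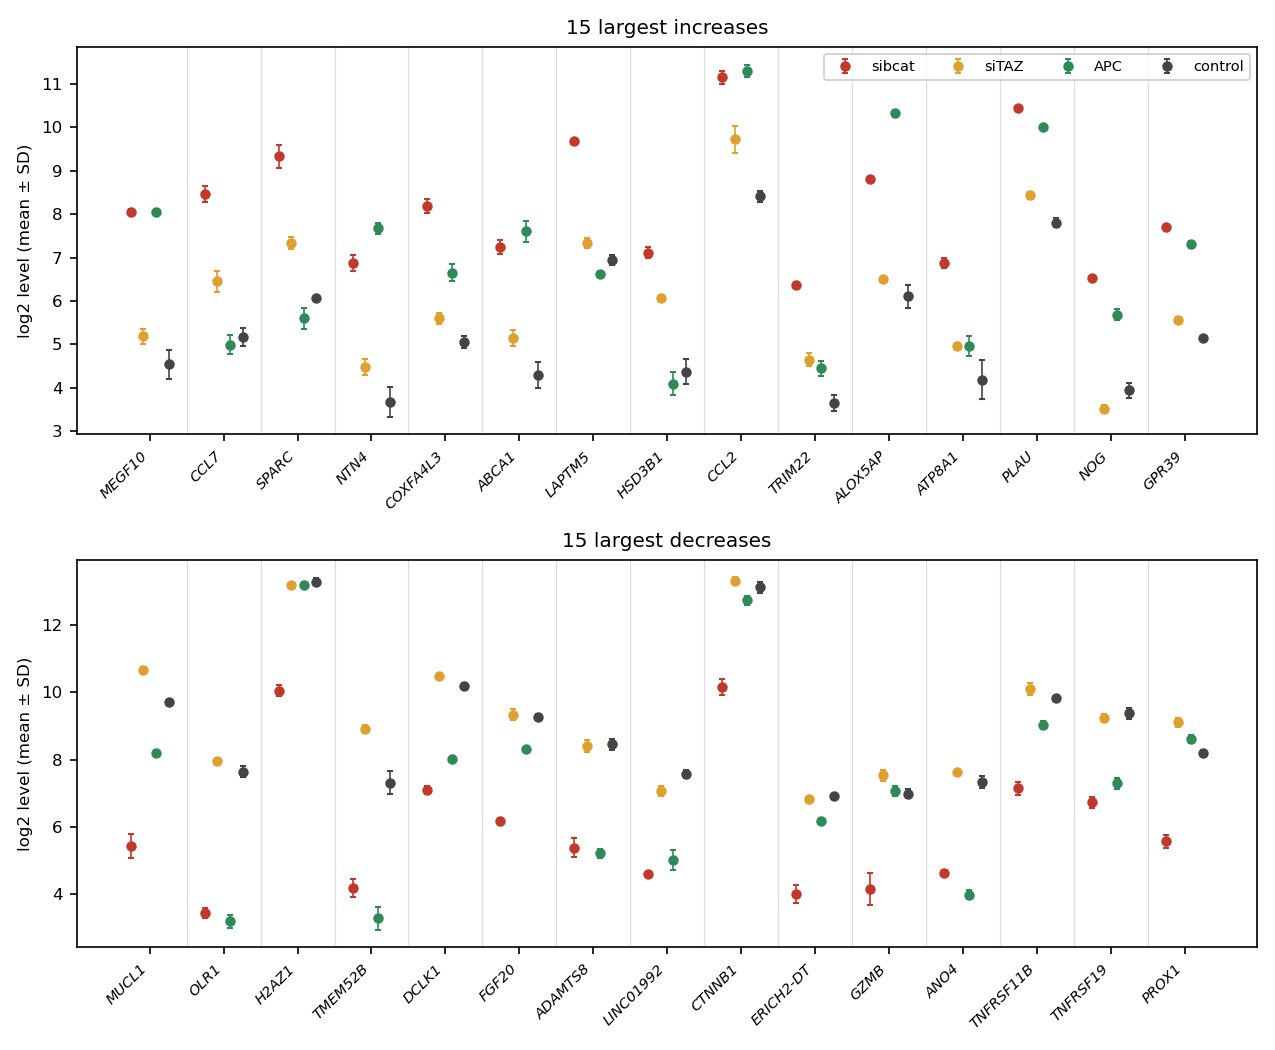
Mean log2 level of the 15 largest increases (upper panel) and the 15 largest decreases (lower panel) in sibcat, siTAZ, APC and control cells (4 arrays each, whiskers SD). For H2AZ1 the siTAZ, APC and control points lie together at about 13 with sibcat near 10, while OLR1 and TMEM52B are low in APC cells as well.

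Set against the other groups as a whole, sibcat cells differed from siTAZ cells in 7259 genes (36.7%) and from APC cells in 8308 genes (42%). Of all genes, 17.8% were higher and 18.9% lower in sibcat than in siTAZ cells, and 21.7% higher and 20.3% lower than in APC cells. Within the Wnt list, 31 of 41 genes were lower in sibcat than in siTAZ cells and 3 higher, with a median difference of -0.83. Against APC cells 18 were lower and 12 higher, with a median of -0.05. AXIN2 averaged 9.95 in sibcat cells, 11.71 in siTAZ cells, 10.25 in APC cells and 11.61 in control cells, and sibcat minus APC was -0.30 (adjusted p = 0.00135). CCND1 did not differ by the test, at 0.09 in sibcat minus APC (adjusted p = 0.263), nor did RNF43 at -0.05 (adjusted p = 0.572). ID2 was higher in sibcat than in APC cells by 2.55 (adjusted p = 2.43e-13) and DKK1 by 1.5 (adjusted p = 1.79e-10). Replication genes were lower in sibcat than in APC cells in 38 of 39 cases, and in 31 of 39 against siTAZ cells.

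Markers of cell types that the culture should not hold were read as a check. Of 15 fibroblast and endothelial markers 10 were under the median of all probe set values (5.09) on all 8 arrays, and their summed linear signal was 435 to 455 in sibcat cells and 420 to 525 in control cells. Of 13 leukocyte markers 6 were under that median on all 8 arrays, and the sum was 1206 to 1266 in sibcat cells and 453 to 541 in control cells, with LAPTM5 and CD14 (log2 difference 1.63) rising. The general leukocyte marker PTPRC averaged 3.13 ± 0.11 in sibcat cells and 3.15 ± 0.17 in control cells. Of 14 nervous system and liver markers 8 were under the median on all 8 arrays, and the sum was 4581 to 5760 in sibcat cells and 2302 to 2709 in control cells, with SERPINA1 rising by 1.22 (0.80 on the probe set less open to cross-matching) and albumin (ALB) at 2.74 ± 0.16 in sibcat cells and 2.82 ± 0.05 in control cells.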

How the data were processed

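Total RNA of SW480 cells was hybridised to Affymetrix U133 Plus 2.0 arrays, 4 per group in 4 groups. The authors deposited log2 expression values for 54675 probe sets, made with RMA per the submitters' processing notes, whose version is not given in the sources used here. RMA corrects background, quantile-normalises all arrays together and summarises probes, so values are relative within these 16 arrays and compress low signals. Values ran between 1.8 and 14.56 with a median of 5.09. Arrays give no read depth, so precision is set by having 4 arrays in a group.

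Probe sets were named from the platform annotation: 41097 match 1 gene, 1801 several and 11777 none, and of the 41097 symbols 41043 were looked up by gene ID in RefSeq and 54 kept as annotated. Each of 19775 genes was read from its brightest single-gene probe set. All 16 arrays entered 1 limma fit (limma 3.58.1, R 4.3.3, lmFit and eBayes) with Benjamini-Hochberg adjustment, threshold 0.05, checked on simulated data. Single values were compared by exact permutation (Python 3.11.15, scipy 1.17.1). The contrasts were sibcat minus control, minus siTAZ and minus APC. Of 1454 listed genes in 58 lists, 109 have no single-gene probe set and are not analysed here.

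Most genes named were drawn from a rule that took CTNNB1, AXIN2, NKD1 and FGF20 and the 15 largest increases and decreases among called genes. For these increases and decreases the arrays do not overlap and the brighter group reaches the array median. Where such a gene has a probe set without the suffixes _x_at and _s_at, it is called the same way there, at 0.5 of the difference or more. The rule also took members of the Wnt lists and the 5 called members with the largest difference of every other list. It gave 361 genes, and the text names 218 genes, 10 of them outside the rule. Many genes that met the rule are therefore not named. Cell type markers came from a list of their own. Members, lists and markers were chosen with earlier results of these data known. Replicate letters were checked as pairs: deviations from the group mean correlated at 0.124 (A), 0.199 (B), 0.403 (C) and 0.192 (D) between sibcat and control arrays of the same letter, all over 0.1, so a fit with the letter as a block was an alternative. Different letters also correlated, at 0.341 for sibcat A with control B and 0.344 for sibcat C with control D. Every pair of A or B with C or D was negative, as in sibcat A with control C (-0.331) and sibcat C with control B (-0.416). The arrays therefore split as A and B against C and D more than by single letters. Other alternatives were fitting 2 groups alone, leaving out dim genes or any 1 array, the mean of probe sets, probe sets without those suffixes, centring, an ACTB degradation covariate, a trended robust prior and a 1.5-fold minimum. Replicates A and B alone and C and D alone were added after the data were seen.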

Additional observations from a re-analysis of the deposited data

Results flagged for a closer look

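Within a group of 4 arrays, a single array stood apart from the other 3 in 24 of 440 groups examined, 436 over 218 genes and 4 over the 3′ to 5′ differences of control probes, by Dixon's test of the gap to its nearest neighbour against the range. Chance alone gives about 1 such group in 20. Of these, 6 were sibcat replicate A and 5 were control replicate B. In many of them the gap itself was small. In sibcat replicate A the log2 levels that stood apart were CSNK1E 7.19 (7.29 to 7.30), CTH 6.19 (6.85 to 6.98), KRT80 9.32 (9.34), OAS1 7.13 (7.31 to 7.33), RIGI 7.80 (7.90 to 7.92) and YAP1 9.84 (10.07 to 10.11), with the range of the other 3 sibcat arrays in brackets. In sibcat replicate B the log2 levels that stood apart were PSMB9 10.03 (10.09) and WNT5B 6.42 (5.87 to 5.93), with the range of the other 3 sibcat arrays in brackets. In sibcat replicate C the log2 levels that stood apart were COXFA4L3 8.42 (8.08 to 8.12), EPHB3 7.46 (7.67 to 7.70), H2BC4 5.89 (5.74 to 5.76), SAMD9 5.87 (5.67 to 5.69) and SAT1 12.54 (12.48), with the range of the other 3 sibcat arrays in brackets. In sibcat replicate D the log2 levels that stood apart were KRT19 12.74 (12.70) and STMN1 5.95 (6.59 to 6.67), with the range of the other 3 sibcat arrays in brackets. Control replicate A stood apart at log2 levels of FGF19 9.33 (9.21 to 9.22), MUCL1 9.67 (9.73 to 9.74), MYOF 10.64 (10.45 to 10.47) and TNRC6C 6.67 (6.89 to 6.93), with the range of the other 3 control arrays in brackets. Control replicate B stood apart at log2 levels of CCND3 9.43 (9.23 to 9.24), E2F8 7.92 (8.44 to 8.53), EFNA5 6.54 (7.01 to 7.06), NR2F1 8.85 (9.06 to 9.09) and ROR1 6.70 (7.71 to 7.91), with the range of the other 3 control arrays in brackets. The gaps over 0.4 log2 units were those of CTH, E2F8, EFNA5, ROR1, STMN1 and WNT5B; leaving out the array that stood apart changed none of their calls.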

How the results depend on the processing

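Beside CTNNB1, 203 named genes were called in sibcat against control, and none of them changed direction under up to 18 alternatives. Direction was not compared for genes not called. APC, not called, read -0.11 on its brightest probe set and 0.145 on the brightest one less open to cross-matching. Of the 203 called genes, 198 kept their call under each alternative. The 5 exceptions were WNT10A (0.06 on a probe set without the suffixes _x_at and _s_at), CD74 (0.21) and CIITA (0.07) with the mean of probe sets, CIITA also with replicates A and B alone (0.49) or C and D alone (0.49), FOSL1 (0.30 to 0.39 over single arrays left out, the 2 groups fitted alone or centring) and TCF7L2 (0.18 to 0.21 over single arrays left out, centring or replicates C and D alone). EPCAM and KRT8, not called here, were called in some settings (log2 differences of -0.23 to -0.17 for EPCAM and 0.10 for KRT8), and CDC25A was called lower (-0.28) with the mean of probe sets. With the replicate letter as a block, 4076 genes rose and 3822 fell, CTNNB1 kept its difference of -2.96 (adjusted p = 2.58e-12), EPCAM became called (-0.17) and no other named call changed. A minimum of 1.5-fold left 1079 genes higher and 890 lower in sibcat against control, 1154 and 1126 against siTAZ, and 1629 and 1194 against APC; no other setting moved a total by over 1.5 times. Replicates A and B alone gave 2518 higher and 2309 lower, and C and D alone 3206 and 3092. On probe sets without those suffixes, 17100 genes remained and lists shrank with them: 27 of 31 replication genes fell, 22 of 36 mitosis genes fell, 29 of 38 ribosome biogenesis genes fell, 24 of 33 Wnt targets fell, 16 of 35 matrix genes rose, 9 of 19 protease genes rose, 14 of 23 glycolysis genes rose, 5 of 28 respiratory genes rose and 11 of 12 MHC class I genes rose. Array signal limits dim genes such as LGR5 and KRT20.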

Other observations

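Genes of the RNA interference machinery, which the siRNA itself uses, changed in both directions: of 13 measured, 4 rose and 6 fell (18.6% of all genes rose and 17.3% fell). DICER1, the enzyme that cuts small RNA precursors, had log2 levels of 10.09, 10.31, 10.49 and 10.44 in sibcat cells, against 9.04, 8.98, 9.25 and 9.22 in control cells, with no overlap and a rise of 1.21. TNRC6A, a scaffold of the silencing complex, rose by 0.97, and its relative TNRC6C fell by 1.18 on the log2 scale. Of 17 histone genes 4 rose and 5 fell, and apart from H2AZ1 the larger differences were H2BC4 (-0.97), H2BC21 (0.80) and H2BC5 (0.72), which encode histone H2B and are close in sequence.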
